A study of Mus musculus with 12 samples.

Results

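Cholesterol and fatty acid synthesis genes were followed through dexamethasone treatment and withdrawal in sorted mouse corticotrophs. The group held 32 genes, chosen by symbol for their place in these pathways, out of 55304 genes in the table. All 32 were found, and all 32 were among the 24736 genes that passed the filter on low values. By role they comprised 7 genes of the mevalonate segment, 11 genes from squalene to cholesterol, 6 genes of sterol sensing and transport, and 8 genes of fatty acid synthesis and desaturation.

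Both pathways start from cytosolic acetyl-CoA. In the first, *Hmgcs1* and the enzymes after it build mevalonate and isoprenoid units, farnesyl diphosphate is joined to squalene by *Fdft1*, and the later enzymes turn squalene through lanosterol into cholesterol. In the second, *Acly* supplies acetyl-CoA from citrate, *Acaca* makes malonyl-CoA, *Fasn* assembles palmitate, and *Elovl6* and the *Scd* genes lengthen and desaturate it. The *Fads* genes encode desaturases of polyunsaturated fatty acid synthesis. The transcription factors encoded by *Srebf1* and *Srebf2* drive most of these genes when sterols in the endoplasmic reticulum are low: Scap carries them to the Golgi for cleavage, and Insig proteins hold them back when sterols are plentiful. In secretory cells of the pituitary these lipids go into the membranes of the endoplasmic reticulum, the Golgi and the hormone granules, and in liver and fat glucocorticoids are known to act on fatty acid synthesis together with insulin.

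All mice were male, 8 weeks old at entry, of a C57Bl6/J background, and carried the *Pomc*-eGFP transgene, in which the *Pomc* promoter drives the green fluorescent protein used for sorting. The control group drank plain water throughout (3 libraries). The DEX group had 2.5 µg/ml dexamethasone, a synthetic glucocorticoid, in the drinking water for 4 weeks and was collected at its end (3 libraries), and the other groups had the same 4 weeks of DEX followed by 7 days (3 libraries) or 28 days (3 libraries) of plain water. Start times were staggered so that all groups were collected at the same age. Each library came from eGFP-positive cells sorted from the pooled anterior pituitaries of 2 to 3 mice of a cage, so n = 3 counts pools, single mice are not resolved, and p-values measure the spread between pools. The sort keeps any cell with enough fluorescence, and glucocorticoids are known to repress the *Pomc* promoter that drives it.

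The libraries held 7719894 to 12848078 reads on genes, and the 32 genes together took 0.143% to 0.270% of them. The corticotroph genes were present in every library, with *Pomc* taking 0.454% to 20% of reads and lowest in the 3 DEX pools, while *Gh* of somatotrophs took 8.20% to 22.9% and *Prl* of lactotrophs was also high in every library. In such bulk libraries, fewer cells of a type and less RNA per cell cannot be told apart. Summed marker values differed between groups: the 5 endothelial genes summed to 2.82 to 7.85 in DEX and 6.53 to 61.9 in control. They summed to 24.1 to 155 at 1 week and 73.7 to 139 at 4 weeks. None of these 5 genes was at 0 in every library and none was called for DEX against control. *Plvap* made up most of the 4 week sums (71.1, 94.7 and 51.3). *Pecam1*, *Cdh5* and *Plvap* overlapped between DEX and control. In the limma F test over the 4 groups, 2 of the 5 passed, *Kdr* (adjusted p = 0.0263) and *Emcn* (adjusted p = 0.0422). The 5 macrophage genes summed to 16.2 to 23.3 in DEX against 43.7 to 117 in control, a difference that lay mostly in *Cd74*. *Cd74* was at 29.6, 42.8 and 104 in control and 3.48, 10.4 and 4.71 in DEX (adjusted p = 0.0145, limma). The DEX pools of *Cd68* also lay below control, at 2.60, 2.24 and 3.04 in control and 1.49, 1.31 and 1.23 in DEX (adjusted p = 0.751, limma). *Csf1r* overlapped, at 10.7, 9.42 and 8.70 in control and 9.36, 11.1 and 12.4 in DEX, as did *Ptprc* and *Aif1*. Pool 2 of the 1 week group stood apart, with a scaling factor of 0.702 against 0.863 to 1.21 in the others and the highest share of *Pomc*, and limma's array weights were lowest for pools 2 and 3 of that group, control pool 3 and DEX pool 3 (0.341 to 0.576). The glucocorticoid target *Fkbp5*, a check of exposure, read 80.8, 86.8 and 106 in the control pools and 545, 230.1 and 354 in the DEX pools (log2 fold change 1.97, adjusted p = 0.0971, limma). None of the 6 glucocorticoid target genes was called for DEX against control, and the other 5 had log2 fold changes of 0.07 (*Per1*), 0.21 (*Tsc22d3*), 0.34 (*Sgk1*), 0.89 (*Zbtb16*) and 1.04 (*Pdk4*). Only 1 of the 6, *Fkbp5*, passed the limma F test over the 4 groups (adjusted p = 0.0229).

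The deposited values are CPM (reads scaled to a common total) of a TMM-scaled library, given below without a unit name. They do not take gene length into account, so levels were compared between genes only per kilobase (kb) of annotated exons. On that scale the control pools had their highest mean for *Scd2* at 41.7 per kb, followed by *Fads2* at 41.0, *Pmvk* at 33.1, *Acly* at 30.9 and *Fads1* at 29.2 per kb. *Scd2* encodes the stearoyl-CoA desaturase of brain and other tissues outside the liver, and *Fads2* and *Fads1* the desaturases of polyunsaturated fatty acid synthesis. *Fasn* stood at 8.86 per kb and the liver and fat desaturase *Scd1* at 3.87 per kb. The lowest means per kb were those of *Acaca* (0.515) and *Fdps* (0.475), both of which have a near-identical copy elsewhere in the genome. The *Scd2* pools alone ran from 26.2 to 50.2 per kb, and the control pools overlapped in 29 of the 31 pairs of neighbours in the order.

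**Figure D1:**
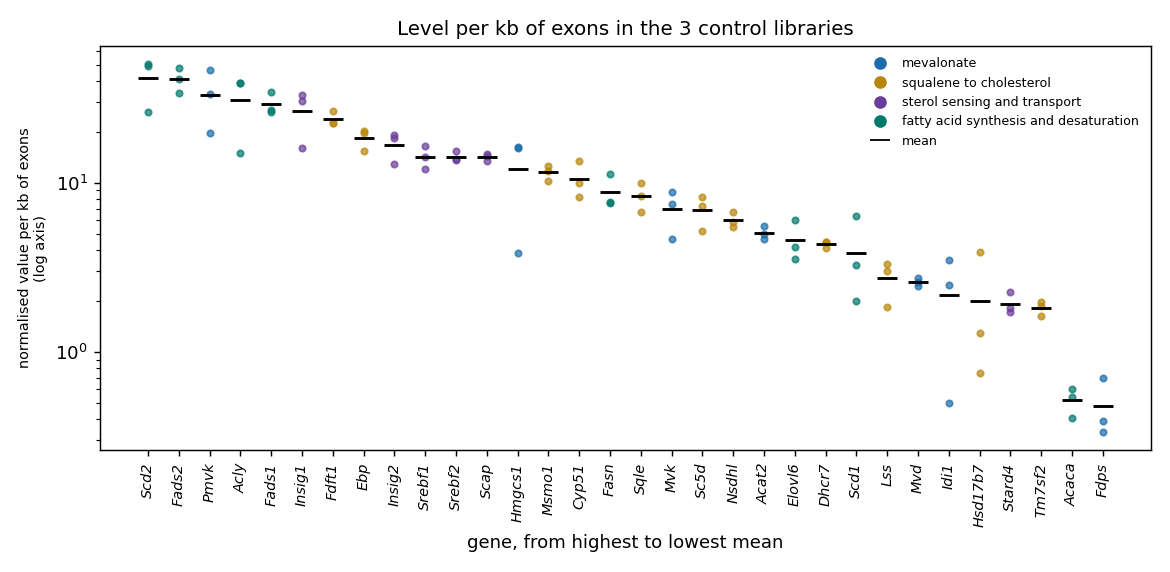
Normalised value per kb of annotated exons (log axis) for the 32 genes in the 3 control libraries, one coloured point per library and a bar for the mean, ordered from highest to lowest mean and coloured by role. The means run from 41.7 per kb for *Scd2* to 0.475 per kb for *Fdps*, and the points of *Hmgcs1*, *Idi1* and *Hsd17b7* are the most widely spread.

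Some of the 32 genes share reads or sequence with others and are less certain. Transcripts of *Acaca*, *Acat2*, *Elovl6*, *Fdft1*, *Fdps* and *Idi1* match another annotated gene over at least 300 bases at 97% identity or more, and *Idi1* matches the pseudogene *Gm13502* at 100% over 684 bases. *Fdft1* shares 774 exonic bases with *Ctsb* on the opposite strand, *Cyp51* shares 166 with *Akap9* on the opposite strand, *Tm7sf2* shares 532 with *Vps51* and *Fdps* shares 1124 with *Gm43738* on the same strand. Per the study's methods, reads were counted with a setting for reverse-stranded libraries, but the library kit does not mark strand, so reads from such a gene and its antisense partner cannot be told apart.

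The promoters that carry the known control of these pathways are shown for *Fasn*, the gene of the group that stood furthest from control under DEX, and for *Hmgcs1*, the only one of the 25 genes searched with a match to the sterol response element searched here. Both are the 250 bases before the transcript start in RefSeq on GRCm38.p6, 5′ to 3′ on the strand of the gene. *Fasn* lies on the minus strand with its promoter at chr11:120824548-120824797, and *Hmgcs1* on the plus strand with its promoter at chr13:119690101-119690350. Capitals mark the CCAAT box (CCAAT, or ATTGG on the other strand) in both, and in *Hmgcs1* also the sterol response element core.
Fasn: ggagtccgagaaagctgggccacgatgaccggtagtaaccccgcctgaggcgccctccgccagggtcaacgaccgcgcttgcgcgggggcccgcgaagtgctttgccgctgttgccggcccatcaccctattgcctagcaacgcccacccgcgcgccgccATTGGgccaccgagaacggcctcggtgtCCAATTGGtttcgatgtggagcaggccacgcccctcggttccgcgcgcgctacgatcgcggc
Hmgcs1: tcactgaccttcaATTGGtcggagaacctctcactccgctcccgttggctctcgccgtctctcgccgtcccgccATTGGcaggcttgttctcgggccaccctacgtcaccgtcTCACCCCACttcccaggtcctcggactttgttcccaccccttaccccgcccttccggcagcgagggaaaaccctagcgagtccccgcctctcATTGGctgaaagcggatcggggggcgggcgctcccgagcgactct
CCAAT boxes are known as sites of NF-Y, which acts beside SREBP at many sterol genes. Of the 32 genes, 25 had a promoter in the RefSeq table, searched on both strands from 250 bases before to 50 after each listed start. CCAAT occurred in 20 of these 25 (80%), against 41.1% of the 27025 genes with a promoter and 41.8% of the 14401 of them that were tested. The GC box of Sp1 (GGGCGG) occurred in 21 of 25 (84%), against 38.2% of all and 59.9% of tested genes. The E-box CACGTG occurred in 5 of 25 (20%), namely *Dhcr7*, *Hsd17b7*, *Insig1*, *Sc5d* and *Scap*, against 8.09% of all and 10.6% of tested genes. The sterol response element core TCACNCCAC occurred in 1 of 25 (4%), against 1.44% of all and 1.41% of tested genes, and sites that depart from these letters were not searched. These are letter matches in short windows, and a gene with several listed starts had several windows.

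None of the 32 genes differed among the 4 groups by the limma F test at an adjusted p under 0.05, the smallest being 0.252 (*Fasn*), where 0.315% of all 24736 genes tested passed. None passed in any of the 6 comparisons of 2 groups. The background shares were 0.121% of genes for DEX against control, 0% for 1 week against control, 0% for 4 weeks against control, 0.433% for 1 week against DEX, 0.873% for 4 weeks against DEX and 0% for 4 weeks against 1 week, so a count of 0 among 32 genes lay near the background in each. At an unadjusted p under 0.05, the F test picked *Fasn* and *Scd1*, or 2 of 32, against 9.21% of all genes.

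The same held for edgeR's quasi-likelihood test on the recovered reads, which called none of the 32 in the F test (0.667% of all genes), DEX against control (0.182%), 1 week against DEX (0.586%) or 4 weeks against DEX (0.865%). The edgeR likelihood ratio test with trended dispersion called *Fasn* among the 4 groups (4.23% of all genes), *Fasn* and *Scd1* for DEX against control (1.09%), and *Fasn* for 1 week against DEX (2.88%) and 4 weeks against DEX (2.72%). DESeq2 called *Fasn* among the 4 groups (3.68%) and for 4 weeks against DEX (3.21%), and none of the 32 for DEX against control (0.977%) or 1 week against DEX (3.02%).

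**Figure D2:**
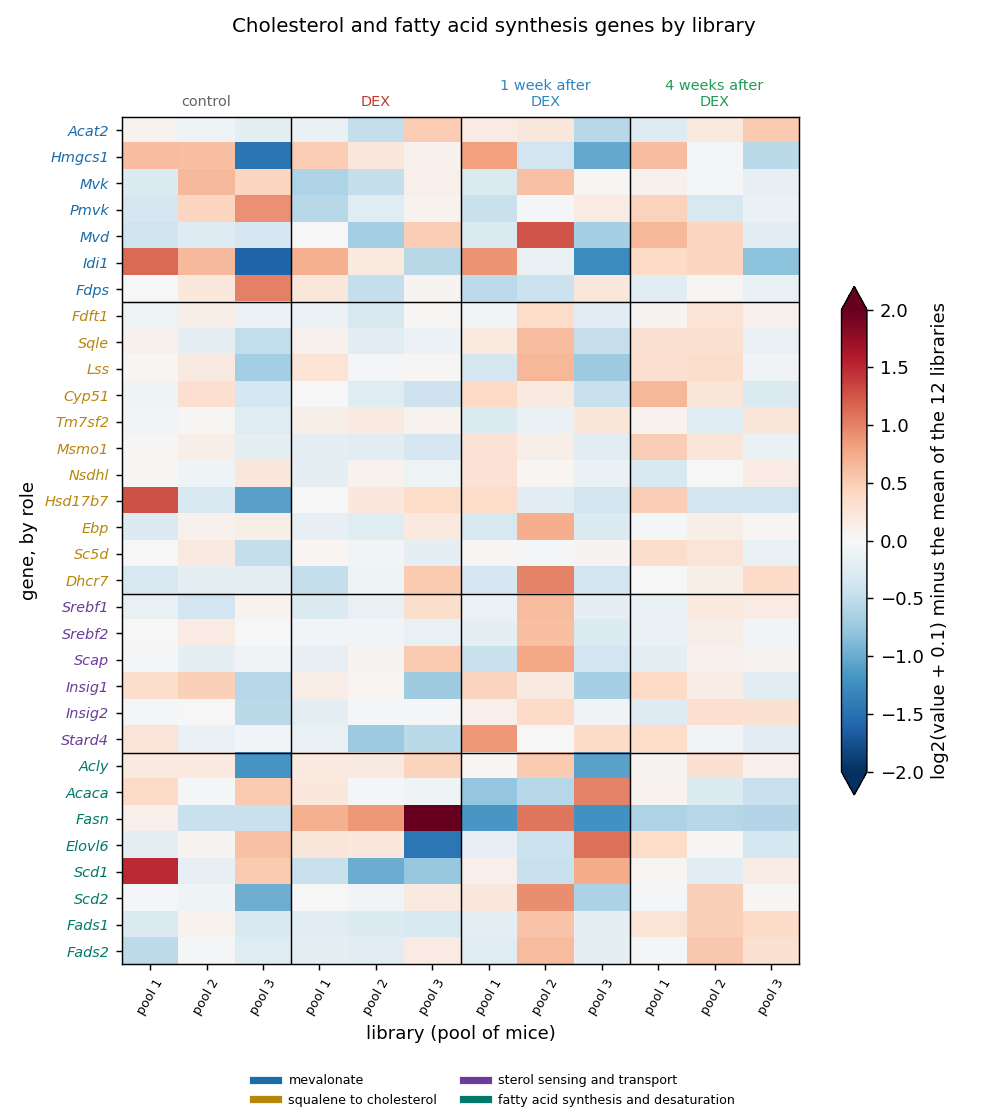
Heat map of the 32 genes (vertical axis, names coloured by role) in the 12 libraries (horizontal axis, 3 pools per group), coloured by log2(value + 0.1) minus the mean of the 12 libraries, with the colour scale ending at 2 in either direction. *Fasn* is red in the 3 DEX pools and in pool 2 of the 1 week group, and control pool 3 and 1 week pool 3 are blue for *Hmgcs1*, *Idi1* and *Acly*.

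DEX against control addresses what 4 weeks of glucocorticoid did to these genes in the sorted cells. The log2 fold changes ran from −1.35 (*Scd1*) to 1.56 (*Fasn*) with a median of 0.03, against a median of −0.02 over all genes tested, and 17 were above 0 and 15 below. Without control pool 3 the median of the 32 was −0.15. At an unadjusted p under 0.05 the 32 genes held 2, *Fasn* upward and *Scd1* downward, against 6.80% of all genes. The 3 DEX pools lay wholly above the control pools for 2 genes (*Fasn*, *Tm7sf2*) and wholly below for 4 (*Msmo1*, *Srebf2*, *Stard4*, *Scd1*), 6 of 32 against 12.8% of all genes with no overlap in either direction. The 95% confidence interval lay within a 2-fold change in either direction for 17 of the 32 genes and held 0 for 30. For the other 15 a 2-fold change was not excluded at this depth and spread.

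**Figure D3:**
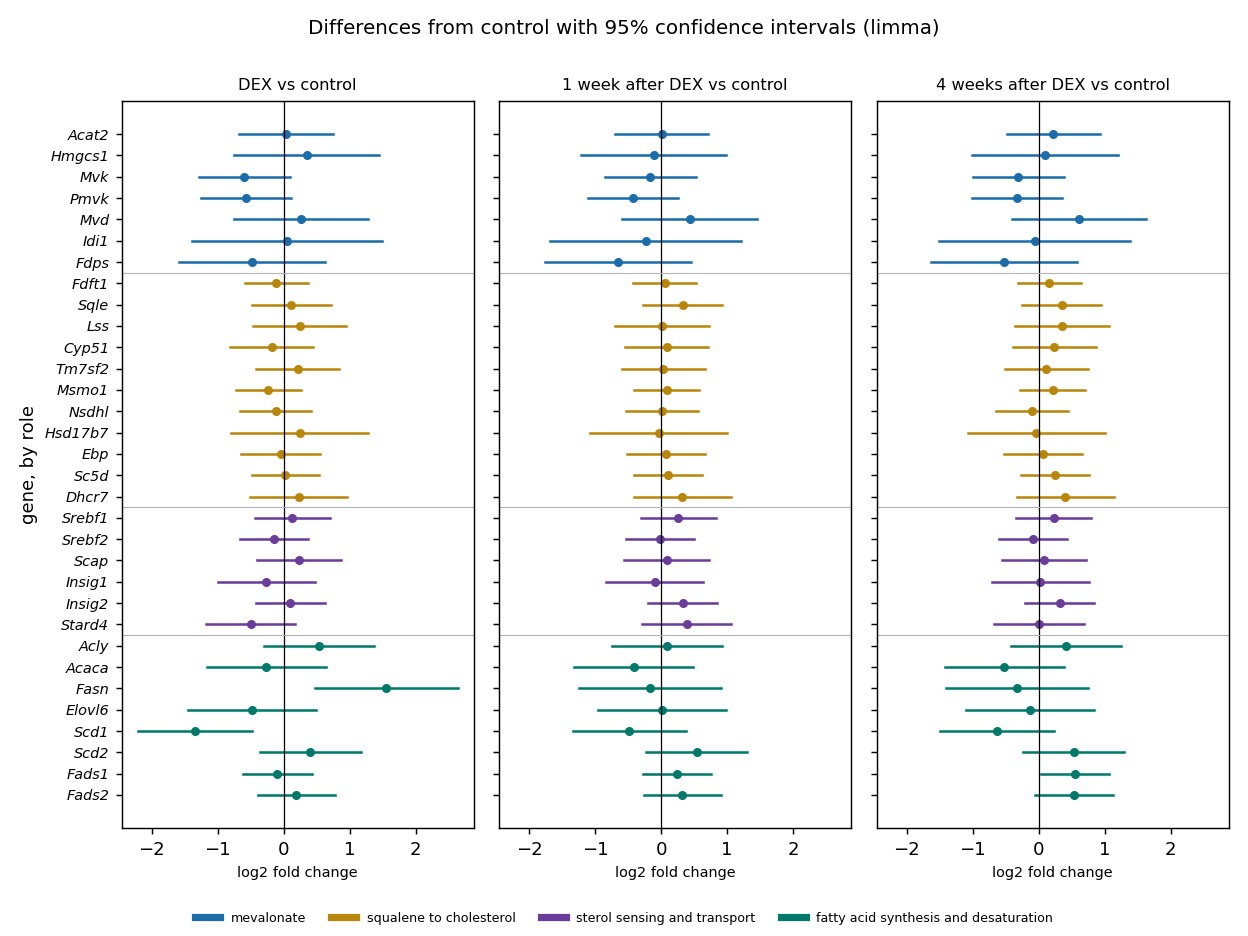
Log2 fold change against control (horizontal axis) of the 32 genes (vertical axis, by role) for DEX, 1 week and 4 weeks after DEX, with points for the limma estimate and lines for its 95% confidence interval, 3 pools per group. In the left panel only the intervals of *Fasn* and *Scd1* lie clear of 0, in the middle panel none does, and in the right panel only that of *Fads1* does.

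The genes of fatty acid synthesis included the highest and the lowest of the 32 estimates for DEX against control. *Fasn* spans chr11:120805846-120824547 (GRCm38, minus strand). The values of *Fasn* were 123, 84.1 and 83.6 in the control pools, 188, 209 and 565 in the DEX pools, 51.2, 239 and 49.4 at 1 week and 74.5, 77.1 and 76.0 at 4 weeks after withdrawal. Each DEX pool lay above each control pool, DEX pool 3 lay far above the other pools, and pool 2 of the 1 week group lay within the range of DEX while pools 1 and 3 of that group were the lowest of the 12. *Fasn*, the multi-domain enzyme that assembles palmitate, averaged 96.95 ± 22.7 in control, 320.3 ± 212 in DEX and 75.8 ± 1.30 at 4 weeks (SD, n = 3 pools), on 444 to 5035 reads per library. Its log2 fold change for DEX against control was 1.56 ± 0.51 (SE), or 2.94-fold, with limma's adjusted p = 0.432. From DEX to 1 week it was −1.73 (adjusted p = 0.158, limma) and from DEX to 4 weeks −1.89 with a 95% interval of −2.97 to −0.81 (adjusted p = 0.105, limma). The 4 week pools all lay below the control pools, by a log2 fold change of −0.33 (adjusted p = 0.957, limma). Without 1 week pool 2, whose array weight was the lowest, *Fasn* passed the limma test for 1 week against DEX (−2.48, adjusted p = 0.0118) and for 4 weeks against DEX (−1.89, adjusted p = 0.0129). The latter estimate was the same with and without that pool. Over the 12 fits that left out 1 library, the estimates ran from −2.48 to −1.22 for 1 week against DEX. For 4 weeks against DEX they ran from −2.18 to −1.38. Each of these 2 comparisons passed in only 1 of the 12 fits. Without DEX pool 3 the difference of DEX from control was 1.05 (adjusted p = 0.981).

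The 6 corticotroph genes did not move one way between control and DEX, and limma called none of them. Their log2 fold changes were −3.41 for *Pomc*, −0.61 for *Crhr1*, −0.43 for *Pcsk1*, 0.01 for *Neurod1*, 1.55 for the transcription factor *Tbx19* and 1.87 for *Avpr1b*. The DEX pools of *Tbx19* (769, 498 and 1490) and *Avpr1b* (103, 67.9 and 130) all lay above the control pools. Those of *Pomc* all lay below, and *Crhr1*, *Pcsk1* and *Neurod1* overlapped. Like *Fasn*, *Tbx19* was highest in DEX pool 3 and lowest in 1 week pool 3. In 1 week pool 2 *Fasn* ranked 2 and *Tbx19* ranked 5 of the 12 pools. The part of the share of corticotrophs in the *Fasn* values was not tested.

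*Scd1* stood at 31.1, 9.78 and 15.9 in control pools 1 to 3, at 8.03, 5.48 and 6.50 under DEX, after 1 week at 11.9, 8.03 and 18.6 and after 4 weeks at 11.2, 9.41 and 12.2. Here the DEX pools were the lowest group and lay below every control pool, control pool 1 was the highest of the 12, and 1 week pool 2 overlapped DEX. The log2 fold change of *Scd1*, a delta-9 desaturase, was −1.35 ± 0.41 (SE) for DEX against control (adjusted p = 0.353, limma), 0.87 for 1 week against DEX (adjusted p = 0.461) and 0.71 for 4 weeks against DEX (adjusted p = 0.635). In the order of pools 1 to 3, *Scd2* read 274, 267 and 143 in control, 280.0, 273 and 320.0 in DEX, 329, 538 and 182 at 1 week and 278, 395 and 288 at 4 weeks. Its relative *Scd2*, which lies on the same chromosome (*Scd2* at chr19:44293674-44306864 and *Scd1* at chr19:44394455-44407879), was low in control pool 3 and 1 week pool 3 and highest in 1 week pool 2, and its DEX and control groups overlapped (log2 fold change 0.41, 95% interval −0.35 to 1.17).

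For *Acly* the 3 control pools gave 205, 205 and 79.2, the DEX pools 205, 202 and 243, the 1 week pools 183, 256 and 85.0 and the 4 week pools 185, 221 and 191. *Acly*, which cleaves citrate, was far lower in control pool 3 and 1 week pool 3 than in the other 10 pools, and the groups overlapped (DEX against control 0.54, 95% interval −0.30 to 1.37). *Fads1* is described because its groups separated, a choice made after its values were seen. Control pools held *Fads1* at 129, 165 and 127, DEX pools at 134, 131 and 127, 1 week pools at 139.5, 233 and 138 and 4 week pools at 191, 218 and 205. *Fads1* lies at chr19:10182888-10196877, near *Fads2* at chr19:10062765-10101746. The 4 week pools of this delta-5 desaturase lay above all control and all DEX pools, with only 1 week pool 2 higher still. The log2 fold change at 4 weeks was 0.55 ± 0.24 (SE) against control (adjusted p = 0.765, limma) and 0.64 against DEX (adjusted p = 0.331, limma). *Fads2*, the delta-6 desaturase that acts before it, ran from 112 to 248 over the 12 pools. Its 4 week pools too lay above all control pools (log2 fold change 0.54, adjusted p = 0.8003, limma). That separation was a near tie, with the lowest 4 week pool at 158.5 and the highest control pool at 158.1. *Acaca* ran from 4.09 to 14.1 and *Elovl6*, which lengthens palmitate to stearate, from 9.42 to 55.8, and neither separated DEX from control.

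**Figure D4:**
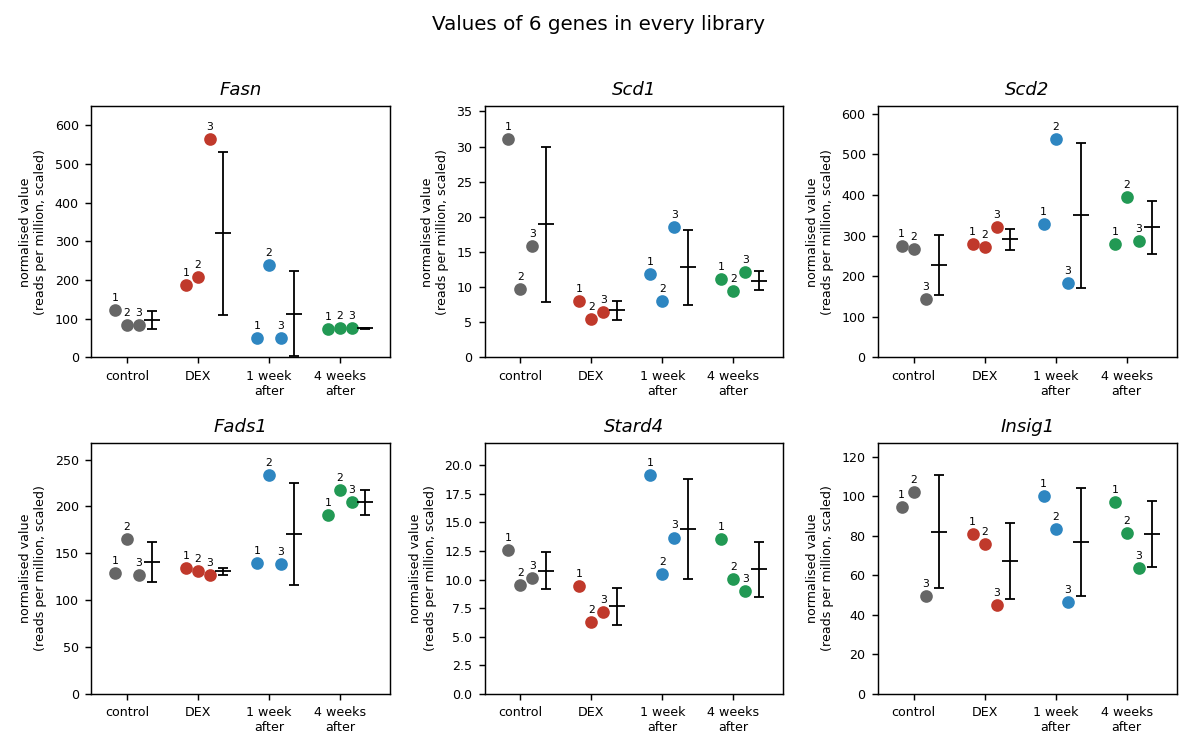
Normalised value (vertical axes from 0, different scales) of *Fasn*, *Scd1*, *Scd2*, *Fads1*, *Stard4* and *Insig1* in the 12 libraries by group (horizontal axis), with the pool number above each point and the mean ± SD of the 3 pools in black beside them. The DEX pools lie above control for *Fasn* and below control for *Scd1* and *Stard4*, and the 4 week pools lie above control for *Fads1*.

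Among the 7 genes of the mevalonate segment the log2 fold changes of DEX against control ran from −0.59 to 0.35, and no DEX group was clear of control. The values of *Hmgcs1* were 75.1, 73.6 and 17.6 in the control pools, 69.0, 56.4 and 51.8 in the DEX pools, 86.1, 37.3 and 23.9 at 1 week and 74.7, 47.2 and 33.7 at 4 weeks after withdrawal. *Hmgcs1*, which makes HMG-CoA, was lowest in control pool 3 and next lowest in 1 week pool 3, so its control group alone spanned more than any difference between groups. *Mvk* stood at 12.4, 23.4 and 20.1 in control pools 1 to 3, at 9.77, 10.8 and 16.04 under DEX, after 1 week at 12.3, 22.4 and 15.2 and after 4 weeks at 15.9, 14.6 and 13.4. In the order of pools 1 to 3, *Pmvk* read 33.5, 57.0 and 79.6 in control, 29.0, 35.7 and 44.7 in DEX, 31.3, 41.9 and 47.7 at 1 week and 58.5, 33.8 and 38.9 at 4 weeks. *Mvk* and *Pmvk*, the kinases that act in turn on mevalonate, had the lowest estimates of this segment under DEX, −0.59 (95% interval −1.28 to 0.09) and −0.57 (−1.26 to 0.12), and for each of them 1 DEX pool at least lay above a control pool. *Idi1*, the isomerase of isoprenoid units, had the widest spread of the 32, a within-group SD of 1.03 on the log2 scale, and ran from 1.74 to 12.2, low in the same pools as *Hmgcs1*. *Mvd* ran from 3.76 to 14.7 and was higher in the 3 pools at 4 weeks than in control (0.62, adjusted p = 0.891, limma), *Acat2* ran from 9.12 to 19.4 and *Fdps* from 0.951 to 2.94, the last on 8 to 27 reads per library.

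The 11 genes from squalene to cholesterol held the 5 smallest within-group spreads of the 32, those of *Nsdhl*, *Tm7sf2*, *Fdft1*, *Msmo1* and *Sc5d*. Their DEX against control differences ran from −0.23 (*Msmo1*) to 0.24 (*Hsd17b7*) on the log2 scale, and for 10 of the 11 the 95% interval lay within a 2-fold change in either direction. For *Fdft1* the 3 control pools gave 96.0, 112 and 94.9, the DEX pools 94.8, 81.8 and 104, the 1 week pools 99.1, 133 and 87.3 and the 4 week pools 107, 123 and 109. *Fdft1*, squalene synthase, varied little: its groups overlapped except that each 4 week pool lay above each DEX pool (0.28, adjusted p = 0.797, limma). Control pools held *Msmo1* at 72.5, 77.0 and 62.7, DEX pools at 62.4, 61.2 and 56.6, 1 week pools at 87.4, 77.6 and 61.5 and 4 week pools at 99.8, 84.4 and 64.8. The DEX pools of this C4-methyl sterol oxidase were below all control and all 4 week pools, at a log2 fold change of −0.23 ± 0.23 (SE) against control (adjusted p = 0.900, limma) and 0.44 for 4 weeks against DEX (adjusted p = 0.576, limma).

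The values of *Lss* were 32.4, 35.8 and 19.8 in the control pools, 38.3, 30.9 and 32.2 in the DEX pools, 25.1, 49.96 and 19.0 at 1 week and 39.7, 40.6 and 30.0 at 4 weeks after withdrawal. *Lss*, which closes the rings to lanosterol, was low in control pool 3 and 1 week pool 3 and highest in 1 week pool 2, and DEX and control overlapped. *Hsd17b7* stood at 19.98, 6.60 and 3.81 in control pools 1 to 3, at 8.28, 9.57 and 10.7 under DEX, after 1 week at 10.6, 7.01 and 6.34 and after 4 weeks at 11.6, 6.35 and 6.32. Control pool 1 was the highest and control pool 3 the lowest of the 12 for this 3-ketosteroid reductase, so the controls enclosed all other pools. *Tm7sf2*, a sterol C14-reductase, had DEX pools of 9.28, 9.73 and 8.97 above control pools of 8.18, 8.72 and 7.18, a difference of 0.22 (adjusted p = 0.919, limma). *Dhcr7*, which reduces 7-dehydrocholesterol to cholesterol, was higher in each 4 week pool than in each control pool (0.40, adjusted p = 0.902, limma) and highest in 1 week pool 2. The others ran over the 12 pools from 37.1 to 81.8 for *Sqle*, the squalene epoxidase, from 34.5 to 73.8 for *Cyp51*, from 13.4 to 20.2 for *Nsdhl*, from 34.6 to 71.6 for *Ebp* and from 25.2 to 45.1 for *Sc5d*, with DEX and control overlapping for each.

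Among the regulators, the estimates for DEX against control ran from −0.50 (*Stard4*) to 0.23 (*Scap*). In the order of pools 1 to 3, *Srebf1* read 79.9, 68.1 and 93.2 in control, 72.7, 80.4 and 113 in DEX, 81.7, 137 and 77.7 at 1 week and 81.0, 102 and 99.4 at 4 weeks. For *Srebf2* the 3 control pools gave 98.1, 110.0 and 98.7, the DEX pools 94.3, 94.3 and 88.3, the 1 week pools 86.1, 148 and 81.0 and the 4 week pools 89.5, 107 and 93.7. *Srebf1*, which mainly drives fatty acid genes, overlapped between DEX and control (0.13, 95% interval −0.44 to 0.70), whereas the DEX pools of *Srebf2*, which mainly drives sterol genes, lay below the control pools by a small margin (−0.15, 95% interval −0.66 to 0.37, adjusted p = 0.940, limma). Both were highest in 1 week pool 2. Control pools held *Scap* at 109.7, 99.9 and 108, DEX pools at 101, 117 and 162, 1 week pools at 83.5, 193 and 87.2 and 4 week pools at 98.4, 119.6 and 118. *Scap*, the escort protein, had the same highest pool, and DEX pool 3 was next.

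The values of *Insig1* were 94.5, 102 and 49.5 in the control pools, 80.9, 75.7 and 45.1 in the DEX pools, 100.3, 83.4 and 46.6 at 1 week and 97.1, 81.6 and 63.6 at 4 weeks after withdrawal. *Insig1*, whose protein acts in retention when sterols are plentiful, was lowest in DEX pool 3, 1 week pool 3 and control pool 3. These are 1 pool of each of these groups, and the groups overlapped for *Insig1* (DEX against control −0.26, 95% interval −1.0 to 0.47). *Insig2* ran from 45.1 to 86.0. *Stard4* stood at 12.6, 9.54 and 10.1 in control pools 1 to 3, at 9.44, 6.30 and 7.18 under DEX, after 1 week at 19.1, 10.5 and 13.7 and after 4 weeks at 13.6, 10.1 and 9.02. The DEX pools of *Stard4*, a carrier of cholesterol between membranes, were below every control and every 1 week pool, at −0.50 ± 0.32 (SE) against control (adjusted p = 0.832, limma) and 0.88 ± 0.32 (SE) for 1 week against DEX (adjusted p = 0.287, limma).

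Withdrawal was compared with control to ask whether the genes returned to their starting level, and with DEX to ask what changed after the drug was stopped. The comparisons share the control or the DEX libraries and so are not independent of each other. At 1 week against control the estimates ran from −0.65 to 0.54 with a median of 0.05 (0.00 over all genes, and −0.12 for the 32 without 1 week pool 2), none of the 32 reached an unadjusted p under 0.05 (3.79% of all genes), none had groups without overlap (6.08%), and 20 intervals lay within a 2-fold change. At 4 weeks against control the median was 0.11 (0.00 over all genes), 1 gene reached an unadjusted p under 0.05 (*Fads1*, upward; 6.35% of all genes), and 6 had no overlap (13.2%), with *Mvd*, *Dhcr7*, *Scd2*, *Fads1* and *Fads2* higher and *Fasn* lower. For 31 of 32 that interval held 0, and 16 lay within a 2-fold change.

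From DEX to 1 week the median was 0.13 (0.03 over all genes, and −0.10 for the 32 without 1 week pool 2), 3 of 32 reached an unadjusted p under 0.05 (*Stard4* and *Scd1* upward, *Fasn* downward; 10.8% of all genes), and the pools of *Stard4* and *Fads1* were all higher than in DEX (2 of 32, against 13.8%). From DEX to 4 weeks the median was 0.18 (0.00 over all genes), 2 reached an unadjusted p under 0.05 (*Fads1* upward, *Fasn* downward; 9.94%), and 5 of 32 had no overlap (19.5%), with *Fdft1*, *Msmo1*, *Scd1* and *Fads1* higher and *Fasn* lower. Between 1 and 4 weeks the median was 0.08 (−0.02 over all genes, and −0.14 for the 32 without 1 week pool 3), none reached an unadjusted p under 0.05 (5.47%) and none was without overlap (8.92%). Wherever 3 pools lay wholly to one side of the other 3, the two-sided exact permutation test gave p = 0.1, the smallest it can give with n = 3 pools a group.

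Single pools set the extremes of many of the genes. Pool 2 of the 1 week group was the highest of the 12 for 14 of the 32 genes (43.8%), where it was the highest for 14.0% of all genes tested and for 18.7% of genes with a mean above 1. These positions are on scaled values, and the scaling factor of that pool was 0.702. Before scaling, the 32 genes took 0.206% of its reads, within the range of 0.143% to 0.270% over the 12 pools. How far its position depends on the scaling was not tested. Control pool 3 was the lowest for 9 of the 32 (28.1%), where it was the lowest for 12.8% of all genes tested and 14.8% of genes with a mean above 1. The median deviation of the 32 genes from their 12-pool mean was 0.30 in 1 week pool 2, −0.22 in control pool 3 and −0.25 in 1 week pool 3 on the log2 scale, and between −0.10 and 0.13 in the other 9 pools. Within groups the SD on the log2 scale had a median of 0.39 over the 32 genes, from 0.19 (*Nsdhl*) to 1.03 (*Idi1*), against 0.45 over the 14526 genes whose mean lay in the same range. The share of mitochondrial reads was 2.55% in 1 week pool 3, 1.22% in control pool 3 and 0.825% in 1 week pool 2, and its part in these positions was not tested. Among the corticotroph genes, 1 week pool 3 was the lowest of the 12 for *Tbx19* (39.5), *Crhr1* (12.5) and *Avpr1b* (1.56). For *Pomc*, *Neurod1* and *Pcsk1* another pool was lower. The part of these low values in the positions was not tested either.

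**Figure D5:**
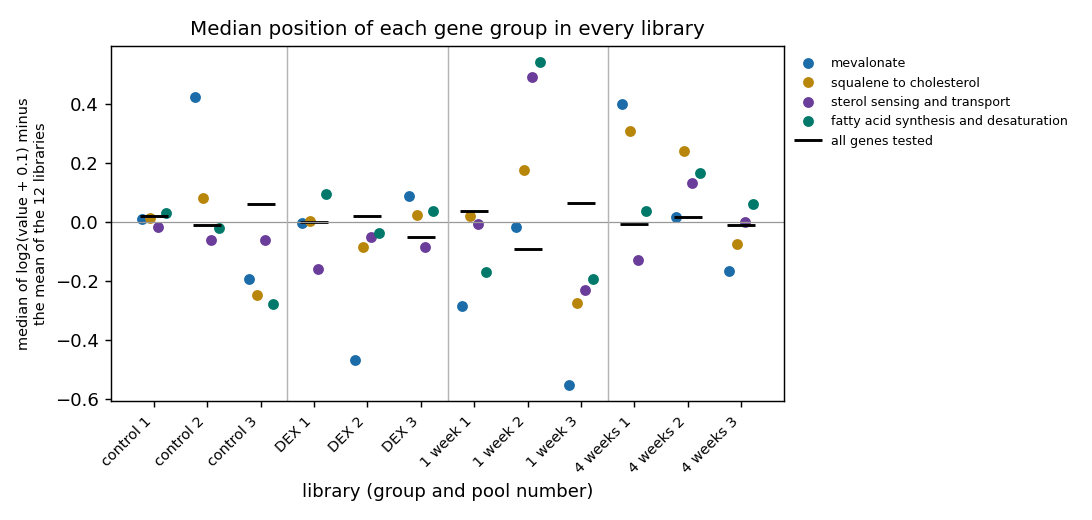
Median of log2(value + 0.1) minus the 12-library mean (vertical axis) over the genes of each role (coloured points) and over all genes tested (black bars), in each library by group and pool number (horizontal axis). All 4 roles lie below 0 in control pool 3 and 1 week pool 3, and the medians of sterol sensing and of fatty acid genes reach 0.49 and 0.54, respectively, in 1 week pool 2.

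Other genes of the pathways were read from a pair of lists. None of 30 other sterol and isoprenoid genes passed the F test or any comparison with limma. Examples are the cytochrome P450 reductase *Por*, with a log2 fold change of 0.59 for DEX against control (adjusted p = 0.856, limma), and the lysosomal sterol carrier *Npc2*, with −0.46 (adjusted p = 0.790, limma). The values were −0.61 for *Cyb5r3* (adjusted p = 0.767, limma) and 0.59 for the site-1 protease *Mbtps1* (adjusted p = 0.882, limma). Of 33 other fatty acid genes that were tested (*Elovl3* was too low), 1 passed, the mitochondrial acetyl-CoA carboxylase *Acacb*, for 4 weeks against DEX. In the order of pools 1 to 3, *Acacb* read 17.9, 7.66 and 11.9 in control, 64.3, 48.1 and 174 in DEX, 10.4, 49.5 and 5.78 at 1 week and 6.19, 9.19 and 11.2 at 4 weeks. The DEX pools all lay above the control and the 4 week pools, and 1 week pool 2 again stood with the DEX pools, between DEX pools 1 and 2, while 1 week pool 3 was the lowest of the 12. Its log2 fold change was 2.78 ± 0.63 (SE) for DEX against control (adjusted p = 0.119, limma) and −3.23 ± 0.63 (SE) for 4 weeks against DEX (adjusted p = 0.0259, limma). At an unadjusted p under 0.05 the fatty acid list held 6 genes higher and 1 lower in DEX than in control, of 33, against 6.80% of all genes. One of these, named after its values were seen, was the acetyl-CoA synthetase *Acss2*, at 51.7, 44.9 and 29.6 in control and 82.8, 66.8 and 96.3 in DEX (log2 fold change 0.98, adjusted p = 0.314, limma), and like *Fasn* it was highest in DEX pool 3. The sterol list held 3 higher and 0 lower, of 30.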

How the data were processed

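RNA of sorted *Pomc*-eGFP cells from 12 pools, 3 per group, was amplified (SMART-V4) and made into Nextera XT libraries, and groups were taken from the sample labels. The authors trimmed reads with Trim Galore 0.6.5, aligned them to GRCm38 with STAR 2.7.1a, counted them on genes with featureCounts 2.0.0 (set for reverse-stranded libraries) and scaled them with edgeR. The deposited values are a normalised signal, CPM of the TMM effective library size. They had been planned for as unscaled CPM, and the planned test was kept. All 271881 values above 0 came out as whole reads (within 6.29e-09), with 1 read worth 0.0787 to 0.127.

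Here limma 3.58.1 in R 4.3.3 (lmFit, eBayes with trend) was fitted to log2(value + 0.1) of the 24736 genes above 0.1 in at least 3 libraries, with 12 libraries in 1 model and no covariate. Fold changes are on this scale, which understates those of low genes. P-values were adjusted by Benjamini-Hochberg over all genes tested, and an adjusted p under 0.05 was called. The F test took the 3 contrasts against control. Single genes were also compared by two-sided exact permutation tests. Alternatives were pseudocounts of 0.5 and 1, other filters and scalings, array weights, the 2 groups alone, a block for the replicate number, omission of each library, edgeR 4.0.16 and DESeq2 1.42.0 on the recovered reads and, added after seeing the data, leaving out the 4 libraries of lowest array weight. The model was tested on simulated data with large planted changes, the same dispersion for every gene and no outlying pool. That test does not bear on smaller changes or on pools that stand apart. No pair of libraries held the same counts, with a chi-square per gene of 15.9 to 145 within groups.

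All 32 genes are named. Values in every library are given for the 2 highest and the 2 with the largest change under DEX in each role, and for *Srebf1*, *Srebf2*, *Insig1* and *Scd2*, and other genes of the pathways are named where they passed or had a high mean, which is not per length. The genes and lists were chosen with earlier results of these data known, and no set test was run. Of 13 marker lists, those for endothelial cells and macrophages are given as sums, the corticotroph and glucocorticoid lists gene by gene, and the somatotroph and lactotroph lists by their leading genes.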

Additional observations from a re-analysis of the deposited data

Results flagged for a closer look

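*Fasn* was singled out because every DEX pool lay above every control pool while every 4 week pool lay below every control pool. The difference between these groups, 4 weeks against DEX, was −1.89 on the log2 scale (75.8 ± 1.30 against 320 ± 212, SD, n = 3 pools) and had an adjusted p of 0.105 by limma, so it did not pass the threshold.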

How the results depend on the processing

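The 8 pairs of a gene and a comparison with an unadjusted p under 0.05 in the report's model (*Fasn* for DEX against control and 1 and 4 weeks against DEX, *Scd1* for DEX against control and 1 week against DEX, *Stard4* for 1 week against DEX, *Fads1* for 4 weeks against control and against DEX) kept their direction in each of 25 refits. These pairs were picked as the strongest in the same libraries that the refits reuse, so a kept direction was likely beforehand. Of all 32 genes, 17 changed direction for 1 week against DEX without a scaling factor. With array weights 16 did so for 4 weeks against 1 week, and without control pool 3, 9 did so for DEX against control. With a pseudocount of 0.5 the number was 0 for DEX against control. Counts of genes past the threshold stayed at 0 for 1 and 4 weeks against control and for 4 weeks against 1 week in every refit. Array weights gave 1 of the 32 among the 4 groups (*Fasn*, 4.32% of all genes), 2 for 1 week against DEX (*Stard4* and *Fasn*, 2.29%) and 2 for 4 weeks against DEX (*Fasn* and *Fads1*, 5.26%). Leaving out the 4 libraries of lowest weight, which keeps only 1 pool at 1 week and assumes that it varies like the other groups, gave 1 (*Fasn*, 1.79%), 1 (*Fasn*, 0.112%) and 2 (*Fasn* and *Fads1*, 3.58%). The edgeR likelihood ratio test gave 1, 1 and 1 for the same comparisons and 2 for DEX against control, and DESeq2 gave 1 among the 4 groups and 1 for 4 weeks against DEX. Without any scaling factor *Fasn* made 1 for 1 week against DEX and 1 for 4 weeks against DEX, and the median of all genes moved to −0.19, −0.29 and −0.24 and that of the 32 genes to −0.18, −0.24 and −0.11 for 1 week against control, 1 week against DEX and 4 weeks against DEX, so the latter lay above all genes by 0.01, 0.05 and 0.14. The median of the 32 genes also turned to −0.036 for 4 weeks against control without a scaling factor. For DEX against control it was 0.18 without a scaling factor (0.10 over all genes), against 0.03 in the report. It was −0.071 with both edgeR tests, −0.091 with DESeq2, −0.079 with array weights and −0.11 without the 4 libraries of lowest weight. For 1 week against control it was −0.017 with array weights and −0.071 without those 4 libraries, and for 4 weeks against 1 week −0.0013 with DESeq2. The cause of these differences was not tested. The F test over 4 groups has no value for a model of 2 groups alone.

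With 1 library left out the counts ran from 0 to 1 among the 4 groups, for 1 week against DEX and for 4 weeks against DEX, each time 1 (*Fasn*) without 1 week pool 2 (0.463%, 0.328% and 1.29% of all genes), and stayed at 0 elsewhere. The medians of the 32 genes ran from −0.15 (without control pool 3) to 0.072 for DEX against control, from −0.12 to 0.25 for 1 week against control, from 0.069 to 0.22 for 4 weeks against control, from −0.10 (without 1 week pool 2) to 0.27 for 1 week against DEX, from 0.086 to 0.22 for 4 weeks against DEX and from −0.14 (without 1 week pool 3) to 0.21 for 4 weeks against 1 week. The replicate numbers gave no clear sign of pairing the pools. Deviations of same-numbered pools correlated from −0.294 to 0.397 (median 0.0559), and those of different-numbered pools from −0.273 to 0.382 (median −0.0145). With the replicate block the count stayed at 0 in all comparisons. The medians were 0.03, 0.05, 0.11, 0.13, 0.18 and 0.08 as without it. The block could not change them, because each number occurs once in each group. Depth limits *Fdps*, which rested on 8 to 27 reads per library.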
